A study of Mus musculus with 20 samples.

Results

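The genes described here are desaturases and elongases of polyunsaturated and long-chain fatty acids, together with Aacs, which makes acetoacetyl-CoA. They leave out Scd1 and Elovl6, and also Fads3, Fads6, Elovl4, Elovl7, Scd3 and Scd4. They were taken from the count and TPM tables by symbol: Fads1, Fads2, Scd2, Elovl1, Elovl2, Elovl3, Elovl5 and Aacs, 8 of 34933 named genes. All 8 were found and all 8 passed the filter on low counts. Poly(A) RNA was sequenced from the livers of wild-type mice with diet-induced obesity, 5 mice in each of 4 groups. The groups received rosuvastatin together with geranylgeraniol (GGOH), rosuvastatin alone, GGOH alone, or vehicle. Rosuvastatin is a statin, a drug class that lowers cholesterol synthesis, and GGOH is an isoprenoid alcohol that cells can use for protein geranylgeranylation. Every mouse, vehicle mice included, carried the wild-type genotype and the obesity, so no comparison here is with lean liver. The labels give no strain, sex, age, dose or duration.

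Dietary linoleic and alpha-linolenic acid are converted to arachidonic and docosahexaenoic acid by alternating desaturation and elongation in the endoplasmic reticulum. Fads2 carries out the first desaturation, Elovl5 and Elovl2 add carbons to the polyunsaturated intermediates, and Fads1 carries out a later desaturation. Several of these genes are known targets of the transcription factor SREBP-1c in mouse liver, and polyunsaturated fatty acids repress them. Elovl1 and Elovl3 elongate saturated and monounsaturated very long chains, Scd2 is a stearoyl-CoA desaturase best known from brain and other tissues outside liver, and Aacs activates acetoacetate in the cytosol for sterol and fatty acid synthesis.

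Library totals ran from 8548120 to 18373913 estimated counts. All 6 hepatocyte markers passed the filter, and Alb stood between 14700 and 45200 TPM. Of the 7 adipocyte markers, Lep was listed at 0 in all 20 libraries and Adipoq, Plin1 and Retn stayed at or below 0.203 TPM, and only Cfd and Fabp4 passed the filter. None of the 5 pancreatic acinar markers passed, and Cpa1 and Ctrb1 were listed at 0 throughout. The share of counts from mitochondrial transcripts was 27.93% in combination mouse 2 and 29.21% in combination mouse 3, and no other library exceeded 17.08%. A further measure set libraries apart: the correlation, across genes, of a library's expression deviation with gene GC content. It ran from 0.0447 to 0.198 with the combination and from 0.0222 to 0.291 with rosuvastatin. With GGOH it ran from -0.315 to 0.0941 and with vehicle from -0.317 to 0.312.

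On the build GRCm38, Fads2 (chr19:10062765-10101746, minus strand), Fads1 (chr19:10182888-10196877), Scd2 (chr19:44293674-44306864) and Elovl3 (chr19:46131897-46135694) lie on chromosome 19. Elovl1 lies at chr4:118428093-118432953, Aacs at chr5:125475814-125517410, Elovl5 at chr9:77917364-77984519 and Elovl2 at chr13:41182381-41220405 (minus strand). The levels of these genes in obese liver ran from Elovl5 near the top of the detected genes to Scd2 near their middle. In TPM, which scales for transcript length, Elovl5 had a median of 269 over 20 mice (144 to 410), at the 98.1st percentile of genes detected. Fads2 followed at 115 TPM (35.0 to 392), then Fads1 at 78.2 TPM (37.0 to 149), Elovl2 at 72.5 TPM (23.7 to 165) and Elovl3 at 53.9 TPM (24.9 to 91.7). Elovl1 stood at 11.0 TPM (3.95 to 31.4), Aacs at 3.36 TPM (0.377 to 13.4) and Scd2 at 0.635 TPM (0.102 to 1.94), the 47.6th percentile. Elovl5 lay above Fads2 in 18 of 20 mice and Fads2 above Fads1 in 18 of 20. Fads1 lay above Elovl2 in only 12 of 20 mice, so that these neighbours did not separate, and Elovl2 lay above Elovl3 in 14 of 20. From Elovl3 downwards, each gene lay above the next in all 20 mice.

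**Figure D1:**
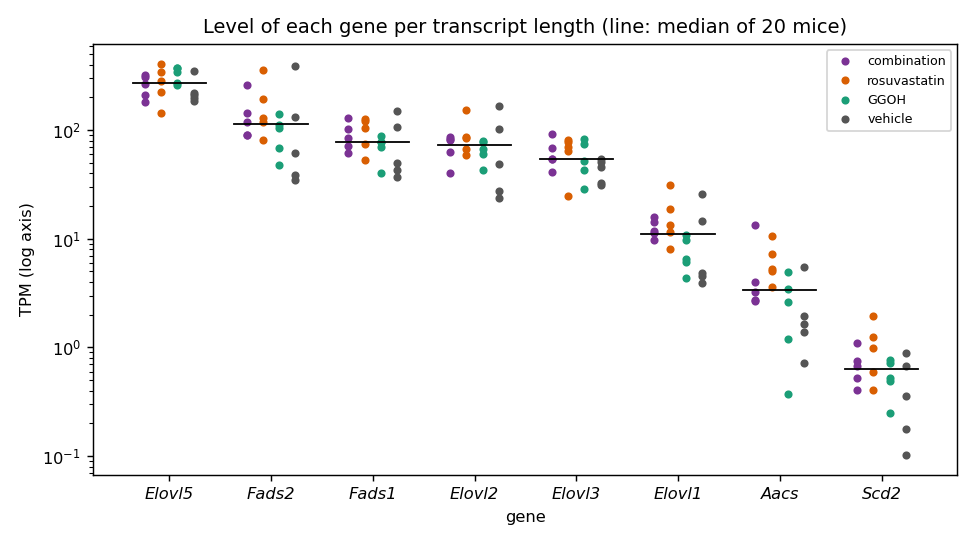
Level of each gene in TPM (log axis) in the 20 mice, in falling order of the median, with 1 point per mouse coloured by group. Elovl3, Elovl1, Aacs and Scd2 are ordered alike in all 20 mice, whereas Fads1 and Elovl2 cover nearly the same range.

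Elovl5 supplied the larger part of elongase transcripts, with a median of 62.7% of the summed TPM of Elovl1 to Elovl7 (49.3 to 77.1%). Elovl2 made up 15.4% and Elovl3 14.2% of that sum, and Elovl1 2.69%, close to the 2.58% of Elovl6, the elongase of palmitate. Scd2 made up between 0.0113 and 0.182% of the summed TPM of the Scd genes, nearly all of the rest being Scd1, the main stearoyl-CoA desaturase of liver. In raw counts Scd2 had between 8 and 140 per library, so its values carry the largest counting error of the 8 genes.

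Mice of the same group differed more for some of these genes than for others. The biological coefficient of variation fitted by edgeR was 0.508 for Aacs, 0.459 for Fads2 and 0.405 for Elovl3, above 97.4%, 96.6% and 96.3% of the 1000 genes nearest to each in level. It was 0.23 for Elovl5 and 0.252 for Fads1, near the medians of their neighbours (0.251 and 0.248). Single mice stood out across genes: vehicle mouse 1 had the highest value of its group for 6 genes (all except Elovl3 and Elovl5) and the lowest for Elovl3. Combination mouse 3 and rosuvastatin mouse 3 were each highest in their groups for 5 genes, rosuvastatin mouse 2 was lowest in its group for 6, and GGOH mouse 1 was lowest in its group for 5.

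Over the 20 mice, Fads1, Fads2, Elovl1, Elovl2, Scd2 and Aacs varied together, whereas Elovl3 and Elovl5 did not vary with them. This split of the genes was read from the same correlations, so the counts by set describe it and do not test it. Of the 15 pairs among the first 6 genes, all had a positive Pearson correlation of log2 CPM (0.447 to 0.853), and 14 passed after Benjamini-Hochberg adjustment over the 28 pairs computed (permutation test). The pair that did not pass was Elovl2 and Aacs (r = 0.447, adjusted permutation p = 0.0921, although its Spearman correlation passed with an adjusted permutation p of 0.0475). Fads2 and Elovl1 had the highest correlation, with r = 0.853 and rho = 0.774 (adjusted permutation p = 9.33e-05 for r). It was 0.79 without the 2 mice farthest from the median of Fads2. Fads1 and Fads2, neighbouring genes on chromosome 19, had r = 0.784 and rho = 0.808, and r = 0.716 without the 2 farthest mice. Elovl2 and Scd2 had r = 0.535, which was 0.112 without the 2 farthest mice and so rested on them. The 13 pairs with Elovl3 or Elovl5 had r between -0.415 and 0.0254, and 0 of them passed. The share of pairs passing among all genes tested was not computed, so the count is not shown to be particular to these genes. With each mouse set against its group mean, 12 of the 28 pairs passed.

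**Figure D2:**
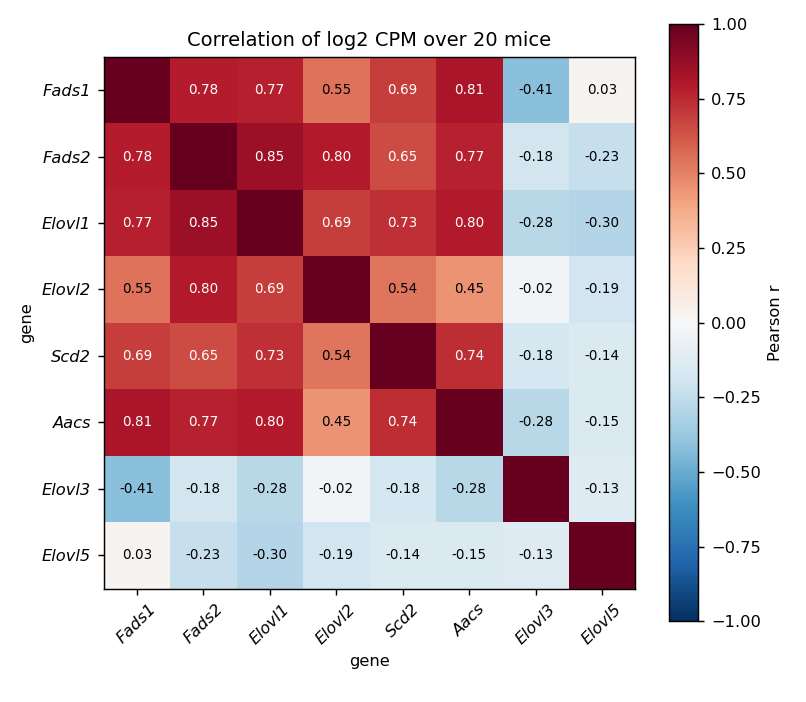
Pearson correlation of log2 CPM over 20 mice for every pair of the 8 genes, with the value printed in each cell (colour scale from -1 to 1). The 15 cells among Fads1, Fads2, Elovl1, Elovl2, Scd2 and Aacs range from 0.447 to 0.853, and those with Elovl3 or Elovl5 reach at most 0.0254.

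The GC correlation of a library moved with the same genes. Over 20 mice, Elovl1 followed it with r = 0.905 and rho = 0.818 (adjusted permutation p = 0.00016 over 16 relations, and r = 0.902 without the 2 farthest libraries), higher than 99.7% of all genes tested. Fads2 (r = 0.735), Aacs (0.717), Scd2 (0.682), Fads1 (0.639) and Elovl2 (0.591) also passed, as did Elovl5 in the opposite direction (r = -0.556), whereas Elovl3 did not (r = -0.219, adjusted permutation p = 0.407). For comparison, 12.9% of all genes tested had an r above 0.7 and 27.4% above 0.5 with this measure. Among all genes tested, the r of Fads2 stood at percentile 89.8, Aacs 88.4, Scd2 85.8, Fads1 82.2 and Elovl2 78.7. Elovl5 stood at percentile 21.5, so its negative r was not unusual. Of the 8 relations with the mitochondrial share, 0 passed. Within the 7 libraries with a negative GC correlation (4 GGOH and 3 vehicle mice), the 15 pairs of the 6 genes had a median r of 0.713 (-0.039 to 0.89), and 0 of 28 pairs passed by exact permutation. Within the 13 libraries with a positive one, which hold all 10 statin mice, the median was 0.528 (-0.0228 to 0.781). There Scd2 and Aacs, Fads2 and Elovl2, and Fads2 and Elovl1 lay at the threshold, each with an adjusted permutation p of 0.05 for r, and the others above it. By Spearman's rho, 1 of the 28 pairs passed there, Fads2 and Elovl2 (rho = 0.813, adjusted permutation p = 0.0316), and their r was 0.475 without the 2 farthest mice. The relation of Elovl1 to the GC correlation had r = 0.779 in the 7 libraries and 0.628 in the 13, and did not pass in either (adjusted permutation p = 0.362 and 0.122). How far this library property entered the pooled correlations was not tested.

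**Figure D3:**
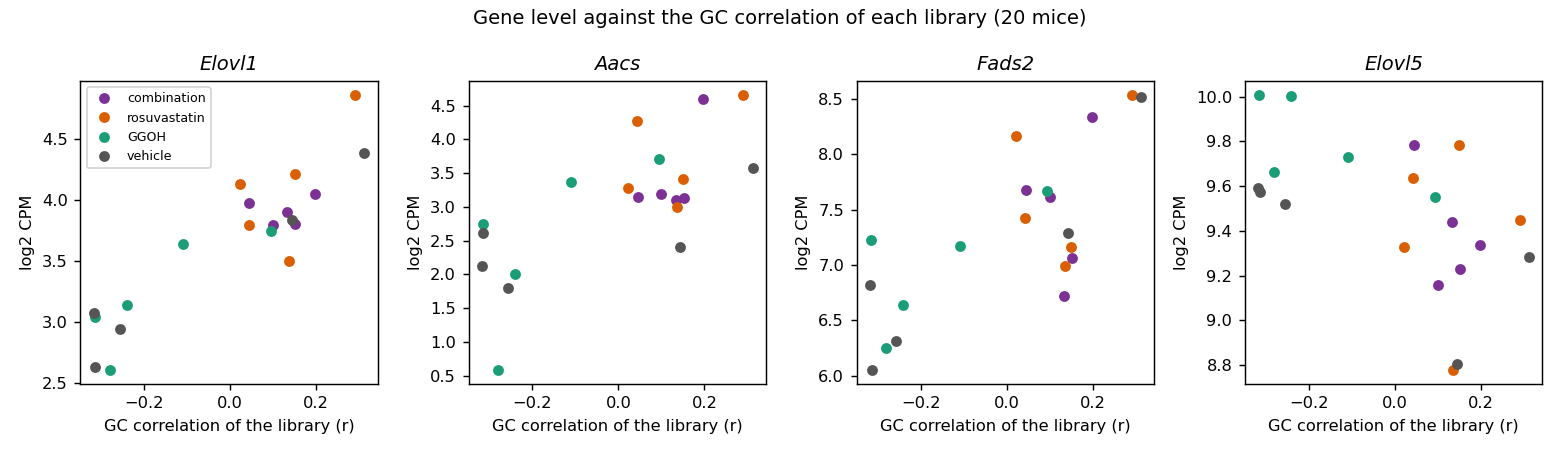
Log2 CPM of Elovl1, Aacs, Fads2 and Elovl5 against the GC correlation of each library (no unit), 1 point per mouse coloured by group. Elovl1 follows the library measure most closely (r = 0.905), Elovl5 runs the other way (r = -0.556), and the 10 statin libraries all lie right of 0.

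Searching 10180 named genes for the patterns most like each gene over the 20 mice gave Arhgdia (r = 0.946) and Def8 (0.944) for Elovl1, Tecr (0.913) for Fads2, and Fam102a (0.896) for Fads1. Tecr encodes the reductase of the last step of the elongation cycle. Acss2, cytosolic acetyl-CoA synthetase, was nearest to Aacs (r = 0.948), Mtmr9 to Elovl2 (0.906) and Csnk1d to Scd2 (0.875). For Elovl5 the nearest was Hsd17b12 (r = 0.877), the ketoreductase of the elongation cycle, followed by Acot2 (0.816). For Elovl3 it was Mup14 (0.82), a major urinary protein gene whose reads cannot be told well apart from those of its close paralogs. The share of all genes tested with r of at least 0.7 was 9.17% for Elovl1 and 7.12% for Fads2, but 0.313% for Elovl5 and 0.297% for Elovl3.

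Promoters of genes that varied together and of one that did not are shown because the pathway is known for control by SREBP, NF-Y and Sp1 type factors. RefSeq (GRCm38.p6) windows of 250 bases before the RefSeq start were matched for 5 of the 8 genes (Fads2, Elovl1, Elovl2, Elovl5 and Aacs, 7 windows). The Fads2 window and Elovl2 window 1 held only 7 bases upstream of the GENCODE gene start, and Elovl1 window 2 held 0. For Fads2 the search thus hardly covered the bases upstream of that start. The searched motifs, on both strands, were the sterol element TCACNCCAC, the CCAAT box CCAAT, the E-box CACGTG and the GC box GGGCGG. Elovl1 at chr4:118427843-118428092, Aacs at chr5:125475623-125475813 and Elovl5 at chr9:77917115-77917363, all on the plus strand, are printed 5′ to 3′ up to the base before the GENCODE gene start, with motif matches in capitals.
Elovl1: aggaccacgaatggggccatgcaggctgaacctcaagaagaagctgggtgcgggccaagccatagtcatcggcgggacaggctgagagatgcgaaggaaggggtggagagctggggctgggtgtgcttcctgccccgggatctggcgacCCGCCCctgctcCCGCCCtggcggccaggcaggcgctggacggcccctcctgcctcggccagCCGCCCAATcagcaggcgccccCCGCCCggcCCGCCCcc
Aacs: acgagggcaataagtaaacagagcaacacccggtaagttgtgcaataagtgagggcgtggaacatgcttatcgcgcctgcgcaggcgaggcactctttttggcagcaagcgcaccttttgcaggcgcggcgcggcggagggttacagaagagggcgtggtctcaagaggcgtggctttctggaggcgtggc
Elovl5: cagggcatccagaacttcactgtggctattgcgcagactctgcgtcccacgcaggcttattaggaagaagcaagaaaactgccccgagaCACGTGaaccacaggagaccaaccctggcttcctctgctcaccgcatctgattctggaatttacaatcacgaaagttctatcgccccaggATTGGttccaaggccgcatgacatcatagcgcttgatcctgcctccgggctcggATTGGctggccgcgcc
The printed Elovl1 window, window 1 of 2, held 5 GC boxes read on the minus strand and a CCAAT box that overlaps one of them. The Elovl5 window held 2 CCAAT boxes on the minus strand and an E-box, and the Aacs window held no match. Of the windows not printed, that of Fads2, Elovl1 window 2 and Elovl2 window 2 held GC boxes only, and Elovl2 window 1 held no match. The sterol element was found in 0 of the 7 windows and in 1.05% of 32841 promoters of the same length. The CCAAT box was found in 33.9% of those promoters, the GC box in 32.7% and the E-box in 6.02%.

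Rosuvastatin alone was set against vehicle to ask what the statin did to obese liver. Fitted values of all 8 genes were higher with rosuvastatin, with a median log2 fold change of 0.41 beside -0.02 over all 12789 genes tested, of which 47.3% were positive. After adjustment over all genes 0 of the 8 passed (edgeR adjusted p of at least 0.973), as did 0% of all genes. At an unadjusted p under 0.05, Scd2, Aacs and Elovl1 were counted, 3 of 8, all higher, beside 1.77% of all genes that were higher at that level. These 3 genes varied together over the 20 mice (pairwise r from 0.734 to 0.796). Counts of the 8 genes, here and below, are thus not counts of independent genes. DESeq2 and limma called 0 of the 8 as well, as in every other comparison made here. The groups overlapped for all 8 genes, while 0.516% of all genes did not overlap.

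Scd2 had 2.39, 3.68, 7.94, 6.97 and 4.26 CPM in rosuvastatin mice, against 3.24, 0.747, 3.06, 2.54 and 1.43 CPM in vehicle mice. Its log2 fold change was 1.17 ± 0.37 (SE, edgeR adjusted p = 0.973), with a 95% interval of 0.40 to 1.93. In 4 of 5 rosuvastatin mice it lay above every vehicle mouse, the exception being mouse 1. Against Scd1, whose log2 fold change was 0.04 ± 0.39, the log2 ratio of Scd2 to Scd1 averaged -10.2 ± 1.04 with rosuvastatin and -11.7 ± 1.02 with vehicle (SD, n = 5 each, exact permutation p = 0.0556, adjusted p = 0.436 over 10 ratio tests).

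Aacs had 9.61, 7.83, 25.2, 19.2 and 10.6 CPM in rosuvastatin mice, against 11.8, 5.98, 5.14, 4.23 and 3.34 CPM in vehicle mice. All 5 rosuvastatin mice lay above 4 of the vehicle mice, while vehicle mouse 1 lay among them. The log2 fold change was 1.23 ± 0.47 (SE, edgeR adjusted p = 0.973), 0.95 without rosuvastatin mouse 3 and 1.66 without vehicle mouse 1. Elovl1 had 17.3, 11.2, 28.9, 13.8 and 18.4 CPM in rosuvastatin mice, against 20.7, 6.07, 14.1, 8.27 and 7.54 CPM in vehicle mice. The groups overlapped through vehicle mice 1 and 3. Its log2 fold change of 0.64 ± 0.30 was 0.42 without rosuvastatin mouse 3 and 1.02 without vehicle mouse 1. Vehicle mice 1 and 3 had a positive GC correlation (0.312 and 0.144), as had all 5 rosuvastatin libraries (0.0222 to 0.291). In vehicle mice 2, 4 and 5 it was -0.314, -0.317 and -0.256. Scd2, Aacs and Elovl1 followed this measure over the 20 mice. With an offset for GC content none of them passed after adjustment. Beyond that fit, the part of the measure in their differences was not tested.

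The polyunsaturated fatty acid enzymes had smaller fitted differences. Fads2 averaged 220.2 ± 105 CPM in rosuvastatin mice and 156 ± 123 CPM in vehicle mice (SD, n = 5 each), where vehicle mouse 1 had 367 and the other 4 between 66.1 and 156 CPM. The log2 fold change was 0.49 ± 0.42, 1.12 without vehicle mouse 1 and 0.24 without rosuvastatin mouse 3. Fads1 averaged 299.9 ± 64.5 CPM in rosuvastatin mice and 249 ± 68.4 CPM in vehicle mice, a log2 fold change of 0.27 ± 0.22. Elovl2 differed by 0.30 ± 0.28, Elovl3 by 0.33 ± 0.37 and Elovl5 by 0.05 ± 0.20 on the log2 scale, the last with a 95% interval of -0.36 to 0.47. Leaving out 1 library moved Fads1 to between 0.18 (rosuvastatin mouse 4) and 0.43 (vehicle mouse 1), and Elovl2 to between 0.14 (vehicle mouse 2) and 0.60 (vehicle mouse 1). It moved Elovl3 to between 0.17 (vehicle mouse 1) and 0.59 (rosuvastatin mouse 5).

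**Figure D4:**
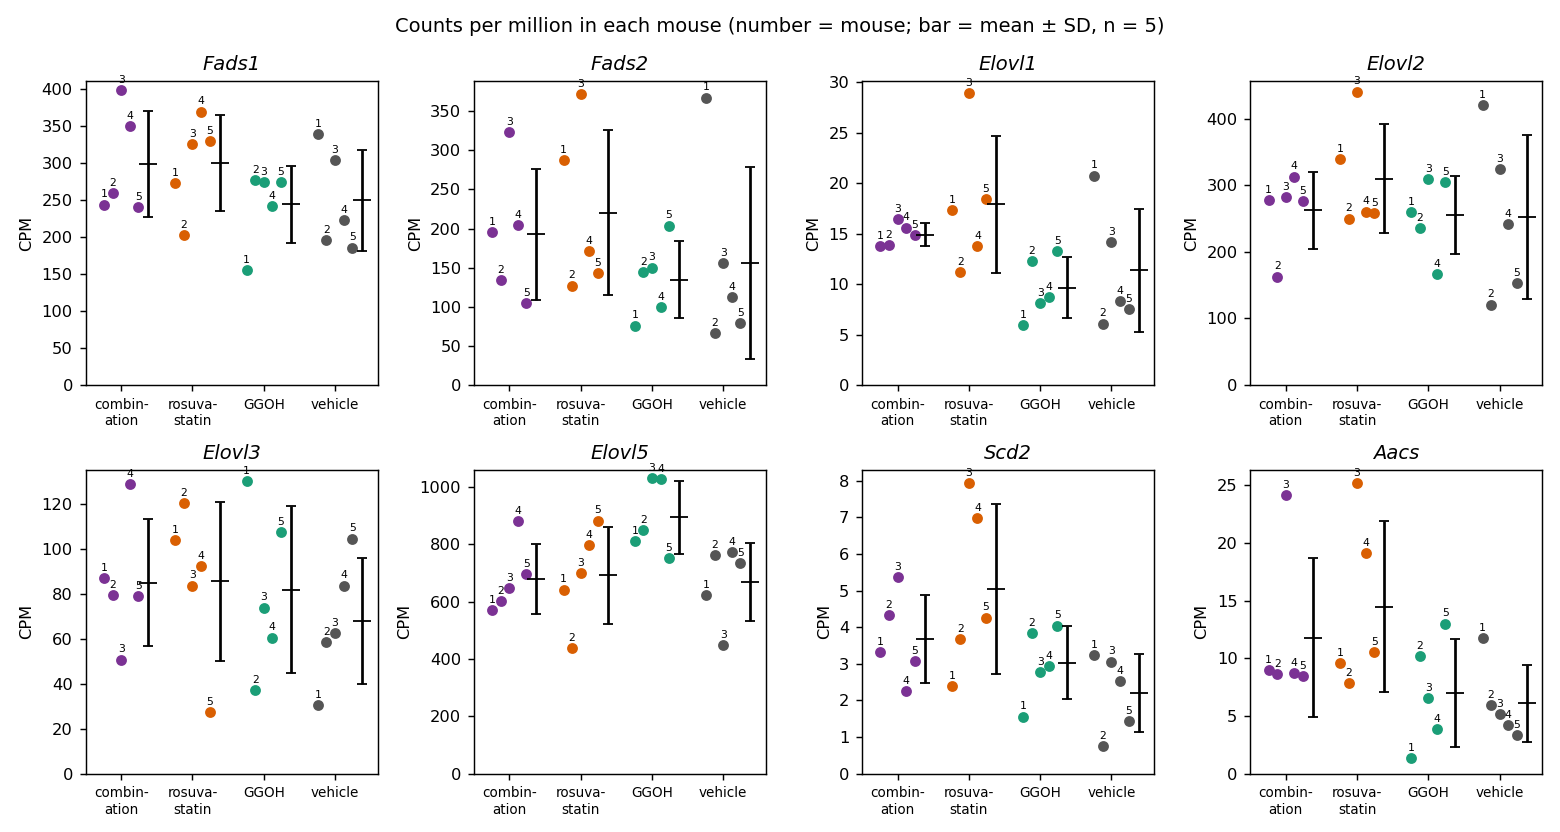
CPM of each of the 8 genes in every mouse (1 point per mouse) for the combination, rosuvastatin, GGOH and vehicle groups, numbered by mouse, with the group mean ± 1 SD as a bar beside the points (n = 5). In the Scd2 panel the highest rosuvastatin mouse reaches 7.94 CPM and the highest vehicle mouse 3.24 CPM, and in the Elovl5 panel 4 of 5 GGOH mice lie above every vehicle mouse.

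The surrounding pathways were described by lists of genes chosen by function. With rosuvastatin against vehicle, 0 genes of any list passed after adjustment over all genes. Over all genes, 47.3% were positive and 1.77% were higher at an unadjusted p under 0.05 (edgeR). Of 20 cholesterol synthesis genes, 19 had a positive log2 fold change and 17 were higher at that level, with a median of 1.11 (Fdps, farnesyl diphosphate synthase, 1.64 ± 0.51). Of 8 lipogenesis enzymes tested all were positive, 2 of them at that level: Acss2 (0.59 ± 0.22) and Fasn, fatty acid synthase (0.95 ± 0.40). Their median of 0.41 equalled that of the 8 genes described here. Of 14 tested partners of elongation and desaturation, 10 were positive and 2 reached that level, and the one named by the smallest p was Elovl6 (0.77 ± 0.35). Among 8 acetoacetate and ketone body enzymes, Acat2 and Hmgcs1, which make acetoacetyl-CoA and HMG-CoA in the cytosol, had 0.80 ± 0.28 and 0.99 ± 0.42, and the list's median was -0.02. Both genes are also on the cholesterol synthesis list. The 10 peroxisomal enzymes of chain shortening had a median of -0.14 and the 11 tested genes of acyl-CoA formation and phospholipid remodelling 0.04, with 0 genes of either list at that level. Among 19 transcriptional regulators 0 reached it, with Srebf1 at -0.15 ± 0.37, Srebf2 at 0.21 ± 0.25, Insig1 at 0.59 ± 0.32 and Ppara at 0.01 ± 0.26. The 16 clock genes had a median of -0.07.

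GGOH alone was set against vehicle. Of the 8 genes 0 passed after adjustment (0% of all genes), 5 were higher and 3 lower in fitted value (46.9% of all genes were higher), and the median was 0.11 beside -0.02 over all genes. Elovl5, the most abundant elongase, was the 1 gene with an unadjusted p under 0.05, beside 1.26% of all genes higher at that level. It had 811, 849.7, 1029.5, 1026 and 751 CPM in GGOH mice, against 622, 762, 447, 772 and 734 CPM in vehicle mice. In 4 of 5 GGOH mice it lay above every vehicle mouse. The groups overlapped for all 8 genes, and 0.43% of all genes did not overlap. The log2 fold change was 0.42 ± 0.20 (edgeR adjusted p = 1.00), with a 95% interval of 0.01 to 0.84, and 0.31 without vehicle mouse 3, the lowest of its group. Scd2 differed by 0.44 ± 0.37 (0.23 without vehicle mouse 2) and Fads2 by -0.22 ± 0.42 on the log2 scale. Among the partners, Elovl6 had the smallest p (1.18 ± 0.35). Srebf1, the gene of SREBP-1, had -0.82 ± 0.38 (edgeR adjusted p = 0.9998). It stood at 65.3 and 36.3 CPM in vehicle mice 1 and 3, and between 13.1 and 18.9 CPM in the other vehicle mice. In GGOH mice it ran from 10.1 to 22.4 CPM. How far the Srebf1 difference rested on vehicle mice 1 and 3 was not tested. Of 8 lipogenesis enzymes 7 were positive (Me1, malic enzyme, 0.67 ± 0.20), and of 20 cholesterol synthesis genes 17 were negative with a median of -0.26. Of 16 clock genes 12 were negative, with Per1 at -2.02 ± 0.57; the labels give no time of sampling.

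The combination was set against rosuvastatin alone to see whether GGOH altered the values under the statin. All 8 fitted values were lower with the combination (median -0.22, beside 0.01 over all genes, of which 52.6% were positive). None reached an unadjusted p under 0.05 (edgeR) and 0 passed after adjustment (0% of all genes), while 1.69% of all genes reached an unadjusted p under 0.05 in either direction. Scd2 had 3.32, 4.32, 5.36, 2.25 and 3.07 CPM with the combination, and its log2 fold change was -0.48 ± 0.36, with a 95% interval of -1.22 to 0.27, and -0.27 without rosuvastatin mouse 3. Aacs had 9.02, 8.64, 24.1, 8.70 and 8.50 CPM with the combination and a log2 fold change of -0.31 ± 0.46, which was -0.74 without combination mouse 3 and -0.041 without rosuvastatin mouse 3. Combination mouse 3, in which mitochondrial transcripts took 29.21% of counts, was far above the other 4 mice of its group. Elovl1, with 13.7, 13.8, 16.4, 15.6 and 14.8 CPM in combination mice, differed by -0.27 ± 0.29 (-0.043 without rosuvastatin mouse 3), Elovl2 by -0.24 ± 0.28 (-0.090 without that mouse), and Fads1, Elovl3 and Elovl5 by less than 0.05 in size. In the same contrast, all 20 cholesterol synthesis genes were negative (median -0.82), 3 of them at an unadjusted p under 0.05 (among them Nsdhl at -0.82 ± 0.36 and Dhcr7 at -0.84 ± 0.40, both of sterol synthesis). The groups overlapped for all 8 genes, and 0.266% of all genes did not overlap. The rosuvastatin mice also enter the comparison with vehicle, so the directions of the 2 comparisons are not independent.

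Against vehicle, the combination gave positive fitted values for all 8 genes (median 0.31, beside 0.01 over all genes, of which 50.8% were positive), with 0 past an adjusted or an unadjusted p of 0.05 (edgeR). At the unadjusted level 5.5% of all genes passed, and after adjustment 0%. The groups overlapped for all 8 genes, and 0.758% of all genes did not. Aacs stood at 0.92 ± 0.47 and Scd2 at 0.69 ± 0.37 (edgeR adjusted p = 0.817 each). Without combination mouse 3 Aacs stood at 0.51, and without vehicle mouse 2 Scd2 stood at 0.48. Elovl6 (1.00 ± 0.35), Me1 (0.54 ± 0.20) and Acaa1b, a peroxisomal thiolase (0.73 ± 0.21), had the smallest p of the elongation, lipogenesis and peroxisomal lists, with an edgeR adjusted p of 0.817 each.

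Against GGOH alone, the combination gave 7 positive fitted values and 1 negative (median 0.27, beside 0.01 over all genes, of which 50.9% were positive), with 0 past an adjusted or an unadjusted p of 0.05 (edgeR). Here 14% of all genes reached an unadjusted p under 0.05 and 0% passed after adjustment. Elovl1 was the 1 gene of the 8 whose groups did not overlap, beside 2.26% of all genes: it ran from 13.7 to 16.4 CPM in combination mice, against 5.96, 12.3, 8.09, 8.69 and 13.3 CPM in GGOH mice. Its log2 fold change was 0.62 ± 0.30 (edgeR adjusted p = 0.357). The GC correlation of the libraries, which Elovl1 followed over 20 mice, overlapped between these groups in 1 GGOH mouse. With an offset for GC content Elovl1 did not pass after adjustment either. Beyond that fit, the part of the GC correlation in this difference was not tested. Elovl5 was the negative one, at -0.40 ± 0.20 (edgeR adjusted p = 0.364), with 570, 600.5, 646, 881 and 694 CPM in combination mice. In the same contrast Hacd3, a dehydratase of the elongation cycle, had -0.56 ± 0.19 and Fads6 0.51 ± 0.20.

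With both statin groups set against both groups without statin, the difference averaged over GGOH was positive for 7 of the 8 genes (median 0.39, beside 0.01 over all genes, of which 51.8% were positive). After adjustment 0 passed (0% of all genes), and Elovl1, Aacs and Scd2 had an unadjusted p under 0.05, beside 6.43% of all genes higher at that level. Elovl1 differed by 0.63 ± 0.21, Aacs by 0.97 ± 0.33 and Scd2 by 0.71 ± 0.26, each with an edgeR adjusted p of 0.327. Leaving out any 1 library gave 0.52 to 0.81 for Elovl1, 0.60 to 0.81 for Scd2 and 0.78 to 1.18 for Aacs. Fads2 stood at 0.50 ± 0.30, and at 0.81 without vehicle mouse 1. Fads1 stood at 0.28 ± 0.16, and Elovl5 was the negative one at -0.17 ± 0.14. All 10 statin libraries had a positive GC correlation, as had 3 of the 10 others. With an offset for GC content, Elovl1 gave 0.55, Aacs 0.80 and Scd2 0.69 (edgeR adjusted p = 0.484 each). Of 8 lipogenesis enzymes all were positive, 4 at an unadjusted p under 0.05 (Fasn 0.86 ± 0.28, Acss2 0.45 ± 0.16, Acaca 0.67 ± 0.30), and of 20 cholesterol synthesis genes 18 were higher at that level, with a median of 0.82.

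**Figure D5:**
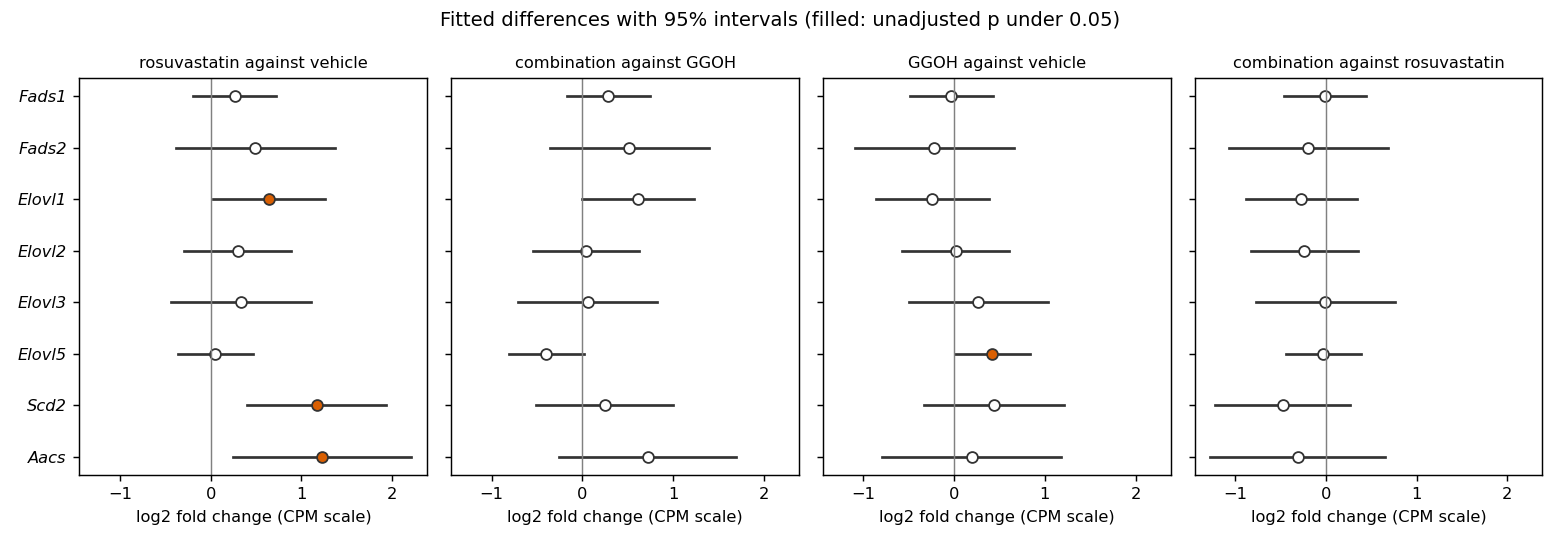
Fitted log2 fold change of each of the 8 genes in 4 pairwise comparisons (points, filled where the unadjusted p was under 0.05), with 95% intervals as bars and a line at 0. Scd2 (1.17) and Aacs (1.23) lie highest for rosuvastatin against vehicle, and none of the 8 genes passed after adjustment over all genes.

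The interaction, which asks whether the effect of the statin differed with GGOH, passed for 0 of the 8 genes at either level (edgeR), beside 2.89% of all genes at an unadjusted p under 0.05 and 0% after adjustment. Of the 8 values 2 were positive, as were 52.3% of all genes. Scd2 had the largest value in size, -0.92 ± 0.52 (edgeR adjusted p = 0.999), with a 95% interval of -1.99 to 0.15, and Aacs had -0.51 ± 0.66, which ran from -0.96 without vehicle mouse 1 to -0.17 without GGOH mouse 5. The interval for Elovl1 ran from -0.90 to 0.85 around -0.03. GGOH averaged over the statin gave 2 positive and 6 negative fitted values (48.4% of all genes were positive), with Elovl5 at 0.20 ± 0.14 and Elovl1 at -0.26 ± 0.21 (-0.079 without vehicle mouse 1). Again 0 passed at either level (edgeR), where 0.00782% of all genes passed after adjustment and 1.7% at an unadjusted p under 0.05. The 1 gene that passed was Cyp2b10, a cytochrome P450 induced by the receptor CAR (2.37 ± 0.35, adjusted p = 0.0155), named after its value was seen.

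Other cell types were followed through their marker lists, none of which had a gene past the adjusted threshold. Against GGOH alone, the combination had 3 of 6 sinusoidal endothelial markers higher at an unadjusted p under 0.05 (edgeR, median 0.32). Of 3 neutrophil markers tested there, 2 were lower at that level (median -1.35), beside 14% of all genes in either direction. Not every marker list is reported here. The summed adipocyte markers ran from 23.7 to 88.6 TPM with the combination, 47.9 to 122 TPM with rosuvastatin, 46.5 to 67.1 TPM with GGOH and 32.6 to 85.7 TPM with vehicle. Those of lipid-associated macrophages, of which all 6 were detected, ran from 36.4 to 94.7 TPM with the combination (median 38.9), 41.2 to 214 TPM with rosuvastatin (median 68.1), 49.3 to 110.0 TPM with GGOH (median 69.6) and 41.1 to 87.8 TPM with vehicle (median 61.6), and Spp1 alone reached 159 TPM in 1 library. The adipocyte sum came mostly from Cfd and Fabp4 (medians 27.7 and 26.4 TPM), with Adipoq, Plin1, Retn and Lep at or below 0.203 TPM. In the lipid-associated macrophage list Spp1 and Cd9 had medians of 29.8 and 21 TPM. Lpl had 6.16, Trem2 1.23, Gpnmb 0.72 and Itgax 0.346 TPM, so neither sum rests on its full list. The lymphocyte markers ran from 6.5 to 9.2 TPM with the combination, 5.33 to 13.6 TPM with rosuvastatin, 4.44 to 9.41 TPM with GGOH and 2.95 to 6.84 TPM with vehicle. Their part in the values of Scd2 was not tested, and in bulk liver fewer cells of a type and less RNA per cell cannot be told apart.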

How the data were processed

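Poly(A) RNA from 20 livers was sequenced as paired reads on a NovaSeq instrument, per the labels' protocols. The build GRCm38 and the tools kallisto 0.44.0, bcl2fastq 2.19 and DESeq2 (neither version nor role given) are named per the submitters' processing notes. The authors deposited kallisto estimated counts per gene, already whole numbers, and TPM values per gene, which the authors scaled for transcript length and depth. The annotation the authors used is not given in the sources used here. A row without a gene name (0.00801 to 0.0157% of counts) was left out. kallisto divides reads among similar transcripts by estimation, and its counts carry length and GC effects of the library.

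Counts were tested with edgeR 4.0.16 (R 4.3.3, quasi-likelihood F test, TMM, default filter by group, 12789 genes) in 1 group-means model over all 20 libraries, which shares 1 estimate of the spread, with Benjamini-Hochberg adjustment over all genes and a threshold of 0.05. CPM are on TMM-scaled library sizes, log2 fold changes are fitted, SEs derive from the F statistic, and intervals are 95%. Level comparisons between genes used TPM. Correlations used 100000 permutations, ratios of TPM the 252 exact assignments (two-sided, smallest p = 0.00794), with scipy 1.17.1 and numpy 2.4.6. Fits were tested on simulated data. Positions and GC content came from GENCODE M21, promoters from RefSeq. The p-values set group differences against the fitted spread between these mice. The labels do not say that mice of a group were housed or processed apart. An effect of a cage or batch shared by a group could not be told apart from its treatment.

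The 8 genes and all lists were chosen with earlier results of these data known. Besides the 8 genes, the genes named in the text were drawn from Scd1, Elovl6, Srebf1, Srebf2, Insig1 and Ppara, from each pathway list up to 3 genes with the smallest p and a mean log2 CPM of at least 1, and the 3 genes most correlated with each of the 8, of which the text gives the first 1 or 2. Alternatives were RLE factors, DESeq2 1.42.0, no filter, a stricter filter (CPM of 1 in 5 libraries), only the groups compared, a replicate block, limma 3.58.1 on log2(TPM + 1) and log2(TPM + 0.1), leaving out each library, leaving out vehicle mouse 1 with combination mice 2 and 3, and, chosen after seeing the data, an offset for GC content. Not every gene the rule allows is reported here.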

Additional observations from a re-analysis of the deposited data

Results flagged for a closer look

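Of 40 groups of 5 values (8 genes and the log2 ratios of Scd2 to Scd1 and of Fads1 to Fads2, in 4 groups), 4 held a mouse whose gap to its nearest neighbour was large for the range of its group; chance gives about 1 in 20, or 2 here. Fads1 in GGOH mouse 1 stood at 155 CPM, below the other 4 mice of its group (241 to 277). Elovl2 in combination mouse 2 stood at 163 CPM, below the other 4 (277 to 313). Elovl3 in rosuvastatin mouse 5 stood at 27.4 CPM, below the other 4 (83.6 to 120.3). Aacs in combination mouse 3 stood at 24.1 CPM, above the other 4 (8.50 to 9.02). Combination mice 2 and 3 are the libraries with the highest mitochondrial shares (27.93% and 29.21%). The part of that share in these values was not tested.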

How the results depend on the processing

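None of the 8 genes passed the adjusted threshold under any alternative tried, in any of the 8 contrasts. For the 64 log2 fold changes of these genes, 1776 of 1896 alternative values kept their direction and 120 did not, and 0 crossed the threshold. The count of all genes passing was 4 (rosuvastatin against vehicle), 1 (GGOH against vehicle), 2 (combination against rosuvastatin), 4 (combination against vehicle), 1 (rosuvastatin averaged) and 4 (GGOH averaged) with DESeq2, against 1 for GGOH averaged and 0 for the others with edgeR. It was 1 without the low-count filter and 1 with limma on log2(TPM + 1) for the combination against rosuvastatin and against vehicle, and 1 with limma on log2(TPM + 0.1) for the combination against vehicle. For GGOH averaged it was 0 without vehicle mouse 1 and combination mice 2 and 3. Leaving out each library gave 0 to 1 for the combination against rosuvastatin and against vehicle and 0 to 2 for GGOH averaged. Only the groups compared could be fitted for the pairwise contrasts, not for the interaction and the averages. The cause of each of these changes was not tested.

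Replicate numbers recur in every group. Deviations of the 30 same-numbered pairs correlated between -0.465 and 0.507 (median 0.056, other pairs 0.0222), 13 exceeded 0.1, and 5 of 20 mice correlated best with their own number. These values show no clear pairing by number, and the labels do not say whether a number marks a shared batch. With the replicate block, 0 genes passed for GGOH averaged, and values turned to 0.075 (Fads2, GGOH against vehicle), -0.22 (Fads2, interaction) and 0.023 (Scd2, GGOH averaged).

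For GGOH against vehicle, Fads1 was 0.0045 without the filter, 0.048 and 0.050 with limma on log2(TPM + 1) and log2(TPM + 0.1), 0.12 without the 3 libraries and 0.021 with the GC offset. Fads2 was 0.056 and 0.061 with limma and 0.40 without the 3 libraries, where Elovl1 was 0.12, and Elovl2 was -0.071 with the GC offset. For the combination against rosuvastatin, Elovl3 was 0.013 and 0.015 with limma and 0.20 without the 3 libraries, where Elovl5 was 0.047. Without them Scd2 was -0.090 for the combination against GGOH. For the interaction, Fads1 was -0.039 without the filter, -0.13 with limma at either pseudocount, -0.24 without the 3 libraries and -0.050 with the GC offset. Fads2 was -0.0039 with RLE, -0.0030 with DESeq2, -0.045 without the filter, -0.30 and -0.31 with limma, -0.78 without the 3 libraries and -0.067 with the GC offset, and Elovl3 was 0.099 without the 3 libraries. For GGOH averaged, without the 3 libraries, Fads1 was 0.0057, Fads2 0.0072 and Elovl2 0.10, and Scd2 was 0.016 with limma on log2(TPM + 0.1). With a pseudocount of 1, the log2 ratio of Scd2 to Scd1 was -0.32 for GGOH and -0.29 for the combination against vehicle.

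Leaving out each library turned the sign of some values. For GGOH against vehicle, Fads1 ran from -0.13 to 0.13, Fads2 from -0.42 to 0.41, Elovl1 from -0.41 to 0.13, Elovl2 from -0.16 to 0.31 and Aacs from -0.14 to 0.62. For the combination against rosuvastatin, Fads1 ran from -0.14 to 0.076, Fads2 from -0.47 to 0.059, Elovl3 from -0.24 to 0.15 and Elovl5 from -0.16 to 0.063. Elovl5 ran from -0.042 to 0.18 for rosuvastatin against vehicle and from -0.087 to 0.088 for the combination against vehicle, where Elovl2 ran from -0.11 to 0.35. For the combination against GGOH, Elovl2 ran from -0.081 to 0.17 and Elovl3 from -0.14 to 0.29. For the interaction, Fads1 ran from -0.16 to 0.11, Fads2 from -0.62 to 0.26 and Elovl1 from -0.41 to 0.18. For GGOH averaged, Fads1 ran from -0.080 to 0.052, Fads2 from -0.33 to 0.093, Elovl2 from -0.21 to 0.030, Scd2 from -0.13 to 0.092 and Aacs from -0.27 to 0.14. The log2 ratio of Fads1 to Fads2 ran from -0.27 to 0.15 for GGOH against vehicle and from -0.016 to 0.33 for the combination against rosuvastatin, and that of Scd2 to Scd1 from -0.17 to 0.49 for GGOH against vehicle. Depth limits Scd2 most, at 8 to 140 counts per library.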
